A study of Homo sapiens with 11 samples.

Results

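The comparison described here is lipoteichoic acid (LTA) added to HIV-1 against HIV-1 alone in LX-2. This is an established human line derived from hepatic stellate cells and immortalised. Its members are 6 of the 11 samples of the series: the 3 RNA-seq libraries of cells given HIV-1 and LTA and the 3 of cells given HIV-1 only, taken by their labels. Every library came from wild-type LX-2 cells grown in DMEM with serum. The virus was HIV-1 BaL at a multiplicity of infection (MOI) of 0.1 and was present in both groups, and LTA was given at 1 ug/ml. Libraries were of cells treated for 24 h. Another 3 libraries, of cells given PBS with neither virus nor LTA, entered the same fit. No library of cells given LTA without virus was analysed here, so the values show what LTA added in the presence of virus. Replicate numbers 1 to 3 are batches 1 to 3 in the labels, with 1 library of each group in each batch. The labels do not say whether the replicates were separate cultures, so the p-values reflect no more than the variation among these libraries, some or all of which may be technical.

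LTA is a glycolipid polymer of the Gram-positive bacterial cell wall. It is sensed mainly by the receptor TLR2, helped by CD14, and the signal runs through MyD88, IRAK kinases and TRAF6 to NF-kB, which switches on chemokine genes such as CXCL8, the gene of IL-8. Stellate cells are the matrix-producing cells of the liver and carry several Toll-like receptors. Interferons act through JAK kinases, STAT proteins and IRF9 on short promoter elements (the interferon-stimulated response element, ISRE) and raise antiviral sensors, effectors and antigen processing genes.

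The 6 libraries held 50.6 to 65.9 M counts of reads assigned to genes. Batch 3 stood apart from batches 1 and 2 in all 3 groups: the first principal component, with 90.4% of the variance over genes, separated it. Libraries of batch 3 also differed in level for single genes, for example VIM at 3030 CPM (counts scaled to the library's total with TMM factors) in the HIV-1 library of batch 3 against 724 and 796 in batches 1 and 2. On the second component, with 4.68%, the HIV-1+LTA libraries of batches 2 and 3 lay at -13.5 and -11.6, while the other 7 libraries lay between 1.6 and 5.93. The HIV-1+LTA library of batch 1 thus lay with the libraries that had no LTA. The same showed in the counts: the chi-square between the HIV-1 and HIV-1+LTA libraries of a batch (as a multiple of what counting noise alone would give) was 3.8 in batch 1, 52.3 in batch 2 and 38.9 in batch 3. Of stellate cell markers VIM, COL1A1 and TAGLN were at 540 CPM or more in each of the 6 libraries. LRAT was below 0.1 CPM in all libraries, and in the 6 DES lay at 0.0511 to 0.184 CPM and GFAP at 0.17 to 0.476 CPM. The defining T cell genes CD3D, CD3E and CD3G and the macrophage genes CD163, MARCO and C1QA were also below 0.1 CPM. CD4, also in the T cell list, had 14.2, 13 and 1.48 CPM with HIV-1 and 14, 18.2 and 2.41 CPM with HIV-1+LTA. The 10 macrophage markers summed to 5.28 to 8.37 CPM with HIV-1 and 6.2 to 11.8 CPM with HIV-1+LTA, most of it CD14, and the 10 T cell markers to 745 to 825 and 614 to 836 CPM, most of it IL7R. Hepatocyte markers summed to 1.91 to 3.65 and 2.65 to 4.49 CPM, and endothelial markers to 11.6 to 13.6 and 13.3 to 15.5 CPM.

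With LTA added, 179 genes rose and 65 fell at an adjusted p below 0.05, out of 13401 genes with an adjusted p (DESeq2 with batch as a block, over all 9 RNA-seq libraries). These are 1.34% and 0.485% of the genes tested. In these bulk libraries, fewer cells of a kind and less RNA per cell cannot be told apart. The median log2 fold change was 0.44 for genes that rose and -0.35 for genes that fell, and 12 of the 244 reached 2-fold. The differences between HIV-1+LTA and HIV-1 in the same batch, as log2 CPM, had the same direction in all 3 batches for 169 of the 179 and 60 of the 65, against 17.6% and 17.8% of all genes tested. The HIV-1+LTA libraries lay wholly above the HIV-1 libraries for 47 of the 179 and wholly below for 10 of the 65, against 2.01% and 2.11% of all genes tested. The calls were made on these same differences, so these counts describe them and do not support them.

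The calls rest on the method and on batches 2 and 3. Among 16117 genes, edgeR's quasi-likelihood test and limma-voom, with the same block, called 0, so below "rose" and "fell" name DESeq2 calls only. The smallest adjusted p was 0.171 in edgeR and 0.183 in limma-voom, and 2486 and 2578 genes had an unadjusted p below 0.05. All 243 of the DESeq2 calls that edgeR tested had an unadjusted p below 0.05 there. DESeq2 picked them on the same counts, so this describes the calls and does not support them. Median differences of the genes that rose were 0.12 in batch 1, 0.62 in batch 2 and 0.53 in batch 3, and of the genes that fell -0.11, -0.53 and -0.43. Without batch 1 DESeq2 called 660 genes higher and 725 lower, 5.31% and 5.83% of those tested, and 236 of the 244 were among them. Without batch 2 it called 0 (385 genes had an unadjusted p below 0.05), and without batch 3 it called 1, the pseudogene UBBP4, 0.00524% of those tested (551 genes had an unadjusted p below 0.05). In all 3 cases the 244 genes had the same sign as with 3 batches. These fits share libraries with the main fit, so a kept sign was close to fixed in advance. Across 9321 genes of at least 10 CPM, the differences of batches 2 and 3 correlated (Pearson r = 0.63), while r was 0.0636 between batches 1 and 2 and 0.0894 between batches 1 and 3. This is a correlation across genes, which are not independent replicates. Without batch 2 the log2 fold changes of PSMB9, DDX60, TFPI, SMAD7 and NFATC2 were 0.45, 0.48, 0.50, -0.47 and -0.82, and without batch 3 they were 0.64, 0.65, 0.45, -0.40 and -0.73, none of them past the threshold. The strand setting of the counting is not given in the sources used here, so reads of a gene and its antisense partner may not be told apart. Whether the batches differ in their response cannot be tested with 1 library per group in each.

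**Figure D1:**
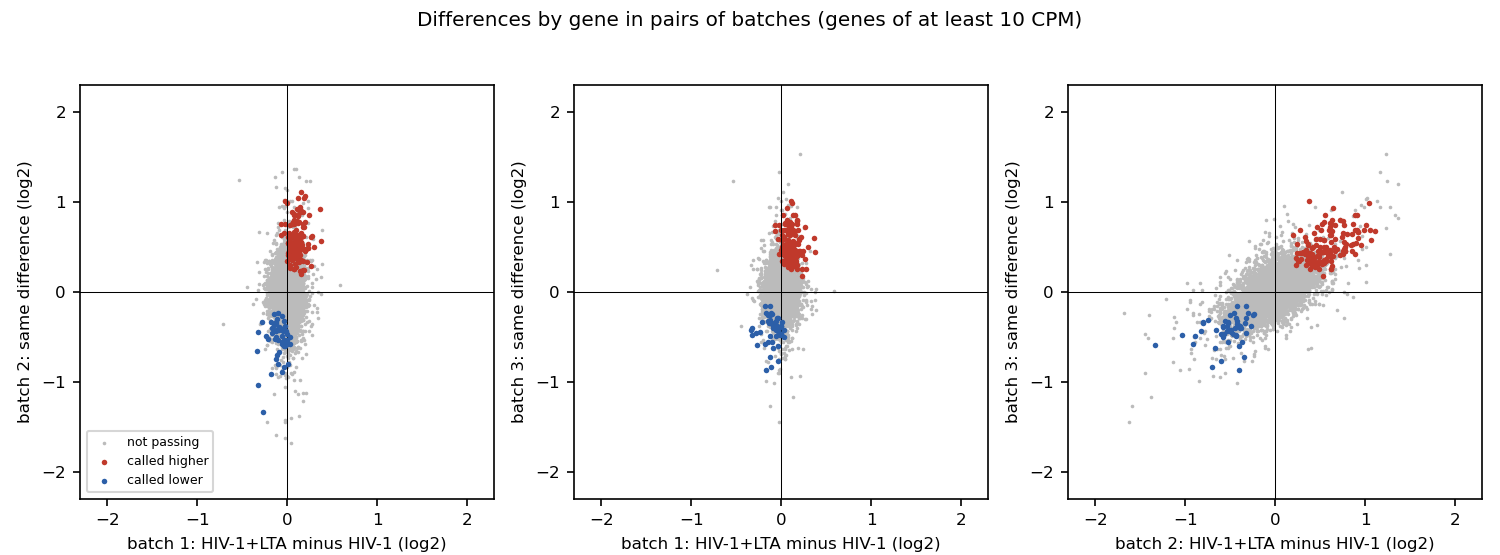
Difference between HIV-1+LTA and HIV-1 (log2 CPM) for each gene of at least 10 CPM, batch against batch, with genes that rose in red and genes that fell in blue. The cloud is narrow along the batch 1 axis in the left and middle panels, and the differences of batches 2 and 3 rise together in the right panel (r = 0.63).

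Of the 179 genes that rose, 20 were in 5 lists of interferon-inducible genes, and 0 genes in these lists fell. These and the other lists below were chosen with earlier results of these data known. Counts and medians of the lists therefore describe the genes and carry no test. Among RNA and DNA sensors 3 of 18 rose, among the IFIT, MX and ISG15 group of antiviral effectors 3 of 20, among interferon-inducible PARP, SAMD9, APOL and GBP genes 6 of 15, among antigen processing and MHC class I genes 5 of 20 and among HIV-1 restriction factors 3 of 17. The share of all genes that rose is 1.34%. The median log2 fold changes of these 5 lists were 0.17, 0.32, 0.36, 0.28 and 0.23, beside -0.0012 for all genes tested. Of the 5 antigen processing and MHC class I genes that rose, 3 were the butyrophilins BTN3A1, BTN3A2 and BTN3A3. They are near-identical and can share reads, so they may not be separate rises, here and among the 20. The rest were PSMB9 and PSME1. By batch, the effector group had medians of 0.01, 0.54 and 0.38 and the PARP group 0.05, 0.57 and 0.48, so these medians came from batches 2 and 3 with values near 0 in batch 1. The receptors, STATs and IRFs that carry the interferon signal had 0 of 18 genes past the threshold, beside 1.82% of all genes tested. Of these 18 genes 16 lay above 0, beside 49.6% of all genes tested, and their median was 0.13. By batch their median was 0.0047, 0.2 and 0.16.

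Short stretches of promoter show where ISRE letters lie in genes of these lists that rose. The motif searched was GAAA, any 2 bases and GAAA, or on the other strand TTTC, any 2 bases and TTTC, in the 250 bases before the RefSeq start of each gene. The 4 promoters shown are from genes with 1 to 3 matches, written 5′ to 3′ on the gene's strand with the matches in capitals, from RefSeq on GRCh38.p14 and matched exactly to hg19, the build of the counts. Coordinates are hg19. The windows of IFIH1 and PARP14 lie upstream of the gene as GENCODE annotates it, and those of IFI6 and EPSTI1 also cover the first bases of the GENCODE gene, which starts earlier than in RefSeq. The IFIH1 promoter is chr2:163175195-163175444 on the minus strand, that of PARP14 chr3:122399436-122399685 on the plus strand, that of IFI6 chr1:27998704-27998953 on the minus strand and that of EPSTI1 chr13:43566378-43566627 on the minus strand.
IFIH1: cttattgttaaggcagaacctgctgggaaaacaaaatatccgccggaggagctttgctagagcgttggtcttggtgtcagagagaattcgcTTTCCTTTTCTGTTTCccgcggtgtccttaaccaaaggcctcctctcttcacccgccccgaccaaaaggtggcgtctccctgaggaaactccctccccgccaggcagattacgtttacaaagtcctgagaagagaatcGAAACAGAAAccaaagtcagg
PARP14: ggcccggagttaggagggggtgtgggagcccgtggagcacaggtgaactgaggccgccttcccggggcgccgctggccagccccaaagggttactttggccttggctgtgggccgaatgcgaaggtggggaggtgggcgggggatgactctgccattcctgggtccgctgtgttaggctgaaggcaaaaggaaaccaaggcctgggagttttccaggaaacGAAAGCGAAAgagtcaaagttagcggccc
IFI6: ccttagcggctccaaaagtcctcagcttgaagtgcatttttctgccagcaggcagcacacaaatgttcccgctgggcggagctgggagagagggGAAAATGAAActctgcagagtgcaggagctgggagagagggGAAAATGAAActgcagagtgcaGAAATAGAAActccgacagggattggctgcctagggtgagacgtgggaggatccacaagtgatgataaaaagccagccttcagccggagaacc
EPSTI1: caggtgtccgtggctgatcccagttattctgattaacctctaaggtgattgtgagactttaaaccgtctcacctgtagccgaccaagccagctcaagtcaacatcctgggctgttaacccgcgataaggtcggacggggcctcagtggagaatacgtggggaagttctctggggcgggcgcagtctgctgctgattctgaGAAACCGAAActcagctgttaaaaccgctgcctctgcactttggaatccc
In IFIH1 the matches start 159, 153 and 21 bases before the gene start (the first 2 share bases), in IFI6 156, 115 and 93, in EPSTI1 50 and in PARP14 29. DDX60 had GAAACTGAAA 88 and GAAACCGAAA 53 bases before its start. The motif was in 7 of the 16 promoters found for the 20 interferon-list genes that rose (43.8%), in 31 of 65 promoters of all tested genes of these lists (47.7%), in 1 of 117 of the other genes that rose (0.855%) and in 0 of 50 of those that fell. For all genes tested it was in 252 of 10656 promoters (2.36%), and it was in 3.07% of all 27305 RefSeq promoters searched. A match describes letters in this window and not a bound site.

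IFIH1, the cytosolic sensor of long double-stranded RNA also called MDA5, had 4.63, 2.88 and 1.11 CPM with HIV-1 and 5.24, 6.78 and 2.41 CPM with HIV-1+LTA in batches 1, 2 and 3. It was higher with LTA in each batch, while the groups overlapped because the batches differed in level. Its log2 fold change was 0.87 (SE 0.255, DESeq2 adjusted p = 0.0416). DDX60, a helicase linked to the sensing of viral RNA, had 9.62, 9.25 and 7.07 CPM with HIV-1 and 12.4, 17.5 and 10.7 CPM with HIV-1+LTA. All 3 HIV-1+LTA libraries lay above all 3 HIV-1 libraries (log2 fold change 0.64, SE 0.121, adjusted p = 0.000366). IFI16, a sensor of DNA, rose by 0.39 (SE 0.092). RIG-I, listed under its older symbol DDX58, had 1.15, 0.972 and 3.22 CPM with HIV-1 and 1, 1.44 and 2.47 CPM with LTA (log2 fold change -0.02, adjusted p = 0.987).

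Effectors of the interferon response that rose were IFIT3, which binds IFIT partners that recognise viral RNA, IFI6 and EPSTI1, with log2 fold changes of 0.34, 0.49 and 0.57. IFI6 was slightly lower with LTA in batch 1, with differences of -0.07, 0.76 and 0.74 in the 3 batches. IFIT3 stood at 30.2, 25.8 and 33.8 CPM with HIV-1 and at 30.6, 37.5 and 45.9 CPM with HIV-1+LTA, a difference of 0.02 in batch 1 against 0.54 and 0.44 in batches 2 and 3. ISG15, a ubiquitin-like modifier, had 6.64, 8.53 and 6.34 CPM without LTA and 7.87, 9.56 and 9.57 CPM with it and did not pass (adjusted p = 0.151). OAS1, which makes the second messenger that activates RNase L, had 1.92, 1.01 and 0.375 CPM and then 1.6, 2.84 and 1.37 CPM. It was lower with LTA in batch 1 and higher in batches 2 and 3, and its log2 fold change of 0.97 (SE 0.339) had an adjusted p of 0.106.

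In the PARP and SAMD9 group, PARP9, its partner DTX3L, PARP14, SAMD9L, APOL6 and TRANK1 rose. PARP14, a mono-ADP-ribosyltransferase, had 85.7, 73.4 and 46.1 CPM with HIV-1 and 91.7, 113 and 67.3 CPM with HIV-1+LTA, a log2 fold change of 0.43 (SE 0.0982, adjusted p = 0.00409). TRANK1 had 9.53, 6.67 and 5.37 CPM and then 10.6, 17 and 8.63 CPM, a log2 fold change of 0.76 (SE 0.182). GBP4, an interferon-inducible GTPase outside this list, went from 8.53, 8.01 and 1.65 CPM to 10.8, 19.9 and 2.59 CPM and rose by 0.80 (SE 0.17, adjusted p = 0.00166). In each of these genes the step was smallest in batch 1.

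Of antigen processing genes, PSMB9 (hg19 chr6:32811913-32827628) encodes a catalytic subunit of the immunoproteasome, which cuts proteins into peptides for MHC class I. PSMB9 had 14.8, 11.9 and 13.9 CPM with HIV-1 and 16.8, 24.8 and 22.5 CPM with HIV-1+LTA. The groups did not overlap, and its log2 fold change was 0.66 (SE 0.137, adjusted p = 0.0013). PSME1, the PA28 alpha proteasome activator, rose by 0.34 (SE 0.0733). The butyrophilins BTN3A1, BTN3A2 and BTN3A3, a family of surface proteins linked to the response of gamma delta T cells to phosphoantigens, rose by 0.56, 0.66 and 0.60. BTN3A2 had 22.9, 14.6 and 7.74 CPM without LTA and 25.4, 31.6 and 12.4 CPM with LTA. The BTN3A genes are near-identical, so reads can be shared among them and their separate values are uncertain. B2M, the light chain of MHC class I, had 2510, 2210 and 1070 CPM with HIV-1 and 2520, 3400 and 1250 CPM with HIV-1+LTA and did not pass (log2 fold change 0.29, SE 0.189, adjusted p = 0.497).

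HIV-1 restriction factors that rose were IFITM2, TRIM22 and LGALS3BP. TRIM22, a TRIM protein reported to limit HIV-1 transcription, had 10.6, 10.2 and 7.65 CPM with HIV-1 and 12.2, 21.5 and 11.5 CPM with HIV-1+LTA (log2 fold change 0.64, SE 0.143, adjusted p = 0.00303). IFITM2, a membrane protein that hinders viral fusion, had 28.1, 25.6 and 16.6 CPM and then 30, 37.1 and 28.5 CPM. Both genes lay higher in all HIV-1+LTA libraries than in any HIV-1 library. IFITM2 has a close copy, IFITM3, which had a log2 fold change of 0.29 (adjusted p = 0.0528), so that reads can be split between them.

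**Figure D2:**
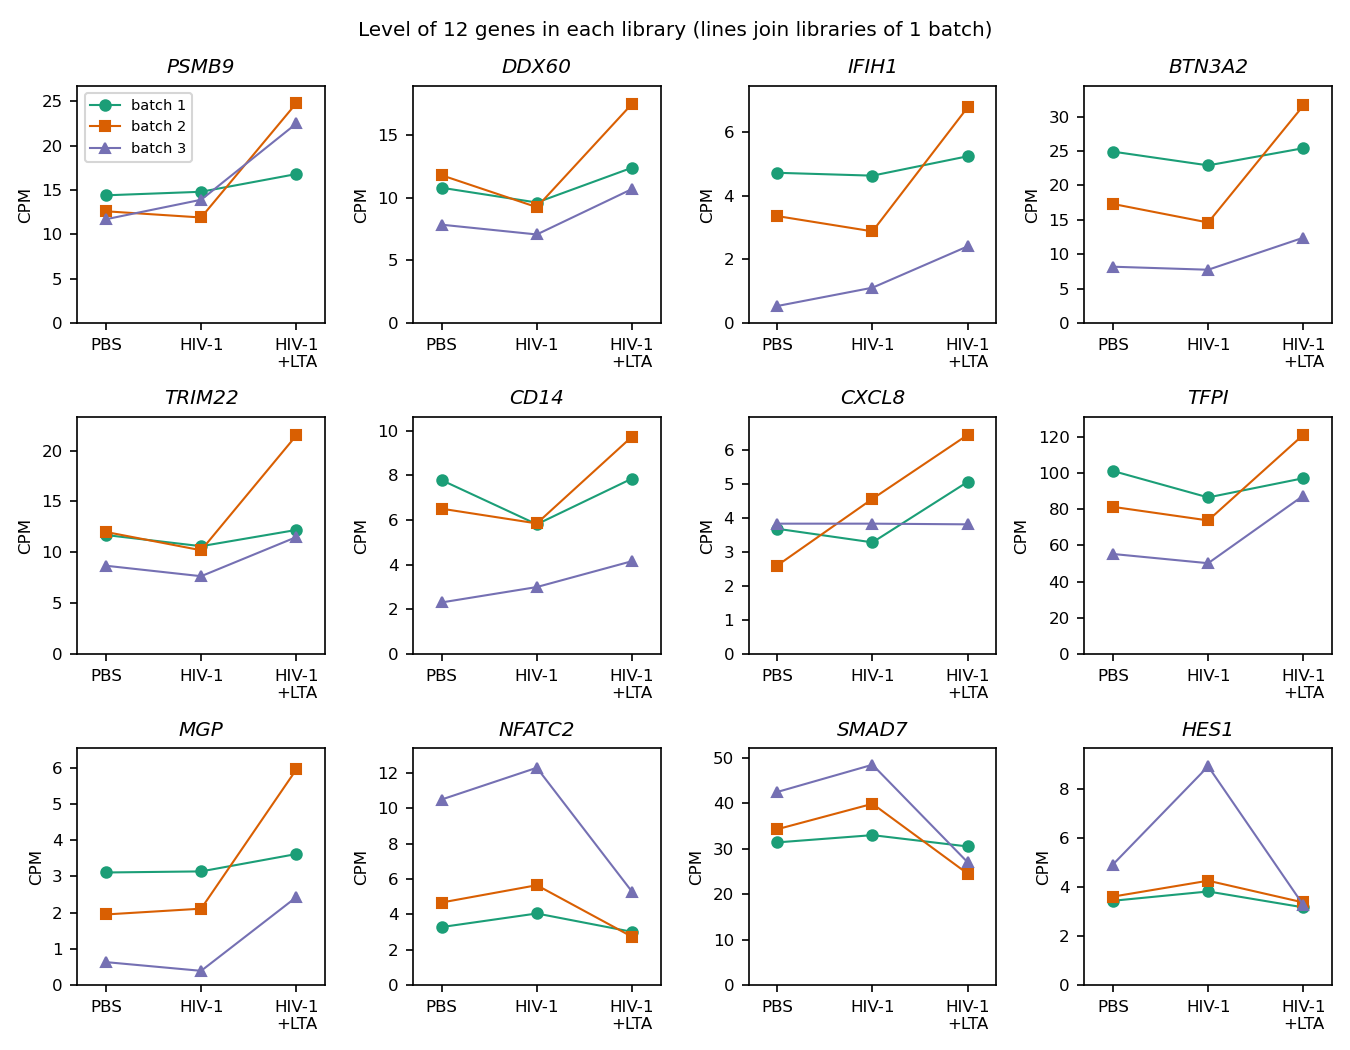
Level in CPM of 12 genes in each of the 9 libraries, with lines joining the 3 libraries of a batch (PBS, HIV-1, HIV-1+LTA) and axes from 0. For PSMB9 the HIV-1+LTA libraries of batches 2 and 3 (24.8 and 22.5 CPM) stand above batch 1 (16.8 CPM), and for SMAD7 the drop is largest in batch 3 (48.5 to 27 CPM).

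Of the 20 genes tested of the route by which LTA is sensed, CD14 rose and 0 fell, beside 1.34% and 0.485% of all genes. CD14, the co-receptor that hands LTA to TLR2, had 5.81, 5.85 and 3 CPM with HIV-1 and 7.86, 9.74 and 4.16 CPM with HIV-1+LTA. It was higher with LTA in each batch, the groups overlapped, and its log2 fold change was 0.56 (SE 0.165, adjusted p = 0.0445). PBS libraries had 7.79, 6.51 and 2.31 CPM. CD14 is a macrophage marker as well as a co-receptor. Of the other markers in that list, 6 of the 10 were below 0.1 CPM (CD163, MARCO, AIF1, TYROBP, FCGR3A and C1QA), while in the 6 libraries CSF1R lay at 0.553 to 1.72 CPM, PTPRC at 0.0204 to 0.861 and CD68 at 0.285 to 0.617. Their part in the CD14 result was not tested. TLR2 itself was near the limit of detection, with 0.335, 0.385 and 0.0852 CPM with HIV-1 and 0.419, 0.367 and 0.163 CPM with LTA, and had no adjusted p.

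CXCL8, the gene of IL-8, the chemokine in the title of the study, had 3.28, 4.56 and 3.83 CPM with HIV-1 and 5.06, 6.44 and 3.81 CPM with HIV-1+LTA. It was higher with LTA in batches 1 and 2 and level in batch 3, with a log2 fold change of 0.39 (SE 0.211, adjusted p = 0.371). Of the 27 listed chemokine and cytokine genes only 10 had an adjusted p, so the others were not tested. 0 of these 10 and 0 of the 20 NF-kB subunits and feedback targets passed, beside 1.82% of all genes. CXCL12, a chemokine that holds lymphocytes and stem cells in tissue, had 367, 307 and 345 CPM and then 401, 479 and 370 CPM (adjusted p = 0.407), and NFKBIA, the NF-kB inhibitor that NF-kB itself induces, had a log2 fold change of 0.07 (adjusted p = 0.788). IL11, a cytokine of fibrosis, had 55.8, 62 and 48.2 CPM without LTA and 50.3, 28.2 and 28 CPM with LTA. It was lower in each batch and did not pass (log2 fold change -0.68, SE 0.213, adjusted p = 0.0666).

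In the TGF-beta list 3 of 28 genes fell and 0 rose, with a list median of -0.12, beside 0.485% and 1.34% of all genes. SMAD7, the inhibitor that TGF-beta signalling induces to restrain itself, had 33, 39.9 and 48.5 CPM with HIV-1 and 30.5, 24.5 and 27 CPM with HIV-1+LTA. All HIV-1+LTA libraries lay below all HIV-1 libraries, and it fell by 0.54 on the log2 scale (SE 0.112, adjusted p = 0.00097). SMURF2, a ubiquitin ligase that acts with SMAD7, and SNAI2, a transcription factor of the mesenchymal state, fell by 0.31 and 0.40. SMURF2 did not fall in batch 1 (difference 0.0024).

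HES1, the Notch target that represses transcription, fell by 0.69 (SE 0.203), with 3.82, 4.26 and 8.93 CPM with HIV-1 and 3.17, 3.37 and 3.26 CPM with HIV-1+LTA. It was the 1 of 10 Notch genes that passed, and batch 3 gave a difference of -1.44 against -0.27 and -0.33. NFATC2, a calcium-dependent transcription factor and the 1 of 13 calcium and NFAT genes that passed, had 4.05, 5.65 and 12.3 CPM and then 3.01, 2.73 and 5.28 CPM (log2 fold change -0.90, SE 0.168, adjusted p = 0.000326). KLF2 and DUSP1, an early-response transcription factor and a phosphatase of MAP kinases, were the 2 of 29 immediate early and MAPK feedback genes that fell, by 0.65 and 0.45. Of all genes tested 0.485% fell, the share beside which the counts of these 3 lists stand. DUSP1 had 34.3, 43.4 and 63.7 CPM and then 33.4, 28.6 and 37.5 CPM, again with nearly no difference in batch 1.

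Of 29 genes of activated stellate cells and their matrix, VIM fell (log2 fold change -0.31, SE 0.0824, adjusted p = 0.0199) and 0 rose, beside 0.485% and 1.34% of all genes. VIM, an intermediate filament of mesenchymal cells, had 696, 540 and 2420 CPM with HIV-1+LTA. The smooth muscle actin ACTA2 had 130, 134 and 105 CPM with HIV-1 and 113, 101 and 71.2 CPM with HIV-1+LTA (adjusted p = 0.738). It was lower with LTA in each batch. COL1A1, the main fibrillar collagen, had 1130, 1330 and 833 and then 1080, 1190 and 989 CPM (adjusted p = 0.97). COL3A1 had 514, 390 and 144 and then 514, 725 and 270 CPM, level in batch 1 and higher in batches 2 and 3. TAGLN had 939, 1060 and 1960 and then 888, 553 and 1270 CPM, lower in each batch. Neither COL3A1 nor TAGLN passed. The cholangiocyte markers, mostly KRT8 and KRT18, summed to 593 to 722 CPM with HIV-1 and 454 to 603 CPM with HIV-1+LTA. Their part in the other results was not tested.

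The 2 lists of secreted and matrix genes that follow were drawn up after these values were seen, so their counts describe them and carry no test. Of 18 genes of elastic fibres and fibril-associated matrix, 9 rose: FBLN2, EFEMP1, EFEMP2, LTBP4, ECM1, PCOLCE, COL12A1, HTRA1 and SULF1, beside 1.34% of all genes. COL12A1, a collagen that binds to the surface of fibrils, had 736, 657 and 544 CPM with HIV-1 and 825, 1010 and 688 CPM with HIV-1+LTA, a log2 fold change of 0.38 (SE 0.0769). FBLN2, a fibulin, had 55.6, 62.8 and 71.4 CPM and then 60.1, 86.1 and 118 CPM. Of 22 complement and coagulation genes 6 rose, beside the same 1.34%. TFPI, the inhibitor of the tissue factor pathway of clotting, had 86.4, 73.7 and 50.1 CPM and then 97, 121 and 87.4 CPM, with no overlap between the groups (log2 fold change 0.57, SE 0.107, adjusted p = 0.000326). PROS1, the gene of the anticoagulant protein S, had 42.7, 32.1 and 12.4 CPM and then 47.3, 59.4 and 22.3 CPM (log2 fold change 0.63, SE 0.119). SERPING1, the C1 inhibitor of complement, rose by 0.64 (SE 0.169), from 5.76, 4.63 and 6.17 CPM to 6.4, 10.5 and 8.98 CPM. MGP, matrix Gla protein, an inhibitor of calcification outside both lists, had 3.14, 2.11 and 0.392 CPM and then 3.62, 5.96 and 2.43 CPM (log2 fold change 1.41, SE 0.305).

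The lists of ribosome biogenesis factors and cytosolic chaperones were also drawn up after values were seen. Of 49 ribosome biogenesis factors, 7 fell (PES1, RRP12, BYSL, EBNA1BP2, MRTO4, WDR43 and POLR1G), 0 rose and the list's median was -0.22, with 0 of 49 above 0, beside 0.485% of all genes that fell, 1.34% that rose and 49.6% above 0. By batch the median was -0.02, -0.40 and -0.20. MRTO4 did not fall in batch 1 (difference 0.005). BYSL, needed for the small ribosomal subunit, had 27.4, 29.4 and 35.5 CPM with HIV-1 and 23.8, 20.5 and 28.1 CPM with HIV-1+LTA (log2 fold change -0.35, SE 0.0822). The 33 cytosolic ribosomal protein genes had 0 past the threshold, beside 1.82% of all genes tested. Their median was 0.0048, and 19 of the 33 lay above 0. Among 23 chaperones HSP90AB1, HSPH1 and FKBP4 fell, beside 0.485% of all genes. HSP90AB1, the constitutive cytosolic HSP90, had 1490, 1470 and 2320 CPM and then 1430, 1100 and 1790 CPM (log2 fold change -0.28, SE 0.0701). Beside the same share, 2 of 20 genes of the stress and unfolded protein response fell, HSPH1 and PPP1R15A, the phosphatase subunit that reverses the stress block on translation. PPP1R15A did not fall in batch 1 (difference 0.03).

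Of the 13 genes encoded by the mitochondrial genome 13 had a log2 fold change above 0 and 2 rose, COX1 and COX2, here the cytochrome oxidase subunits. Of all genes tested 49.6% lay above 0 and 1.34% rose. COX1 had 1920, 1660 and 2160 CPM with HIV-1 and 2000, 2220 and 2840 CPM with HIV-1+LTA (log2 fold change 0.29, SE 0.0836, adjusted p = 0.036), and PBS libraries had 1940, 2320 and 2310 CPM. The mitochondrial share of all counts moved with it, at 1.26, 1.11 and 1.18% with HIV-1 and 1.34, 1.42 and 1.44% with HIV-1+LTA, and its part in other results was not tested. Of 24 lysosomal genes 24 lay above 0 and 2 rose, PSAP among them, beside the same shares of all genes. PSAP, the precursor of proteins that help degrade sphingolipids, had 819, 770 and 814 CPM and then 825, 1040 and 1030 CPM. In the metabolic and stress lists 2 of 25 hypoxia and glycolysis genes rose (ALDOC and BNIP3L), 2 of 20 NRF2 and iron storage genes (FTH1 and AKR1C3, the latter with close copies that can share its reads) and 2 of 21 p53 targets (TP53INP1 and CCNG1), beside 1.34% of all genes. TP53INP1 did not rise in batch 1 (difference -0.03). Sterol synthesis (24 genes) and cell cycle genes (28) had 0 past the threshold, beside 1.82% of all genes tested. Above 0 lay 20 of the 24 and 17 of the 28, beside 49.6% of all genes tested. Of the cell cycle genes MKI67 had 666, 620 and 861 CPM and then 625, 640 and 846 CPM, a log2 fold change of -0.02.

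**Figure D3:**
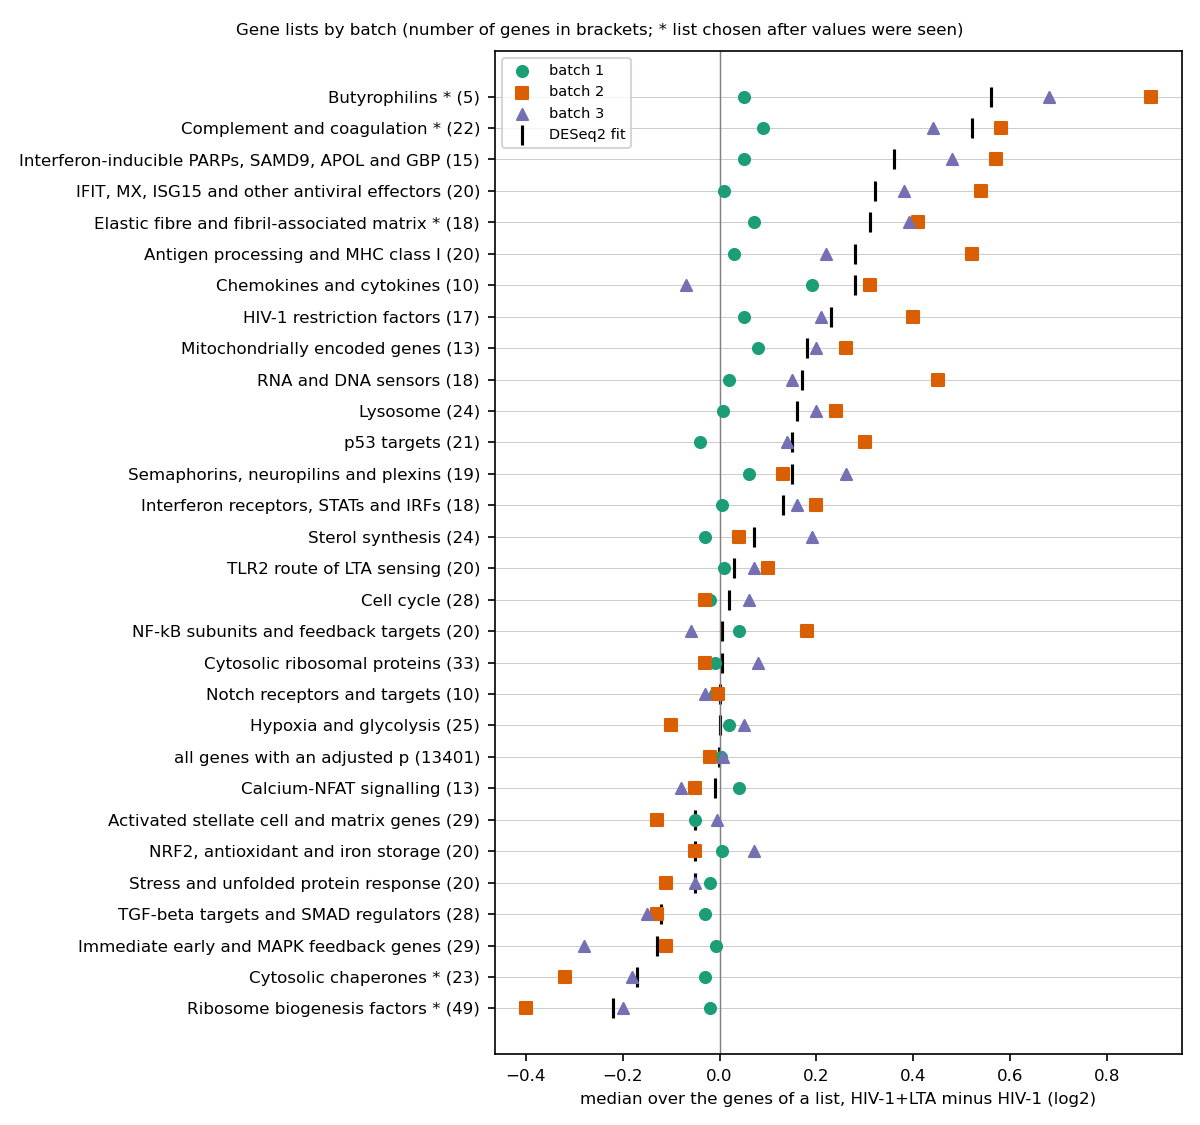
Median difference between HIV-1+LTA and HIV-1 over the genes of each list, in log2, by batch (points) and from the DESeq2 fit (bars), with the number of genes in brackets. Medians of batch 1 lie close to 0 for nearly all lists, for example 0.01, 0.54 and 0.38 for the IFIT, MX and ISG15 group in batches 1 to 3.

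Of the semaphorins, neuropilins and plexins, guidance proteins also used in tissue remodelling, 3 of 19 rose, SEMA3A, SEMA6D and PLXNB2, beside 1.34% of all genes. SEMA6D had 4.65, 3.69 and 2.68 CPM with HIV-1 and 5.96, 9.73 and 5.53 CPM with HIV-1+LTA and no overlap between the groups (log2 fold change 0.96, SE 0.205, adjusted p = 0.00166). SEMA3A was 2.87, 3.23 and 140 CPM and then 3.76, 4.82 and 189 CPM, so that batch 3 held far more of it, while the difference was 0.38, 0.57 and 0.44 in the 3 batches. Its log2 fold change was 0.46 (SE 0.0873).

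The ranking of changes left out pseudogenes, small nuclear, nucleolar and micro RNAs, antisense genes and LINC and LOC loci. Among the 20 highest changes was that of DTNA, a protein of the dystrophin complex. DTNA had 1.09, 1.07 and 0.102 CPM and then 2.03, 3.09 and 0.551 CPM (log2 fold change 1.52, SE 0.382, adjusted p = 0.00995). OLR1, a scavenger receptor for oxidised LDL, had 4.37, 3.54 and 0.222 CPM and then 6.25, 8.71 and 0.347 CPM. The surface protein CD200, which restrains myeloid cells, had 4.39, 2.5 and 2.42 CPM and then 4.76, 6.59 and 4.71 CPM (log2 fold change 0.86, SE 0.226). Among the 10 genes with the highest CPM that rose, IGFBP5, which binds insulin-like growth factors, had 1750, 1980 and 900 CPM and then 1980, 2340 and 1220 CPM (log2 fold change 0.28, SE 0.0698, adjusted p = 0.00878). Among the genes that passed, the largest change upward was in UBBP4. Of the ranked genes, the largest downward was in MRPL23. UBBP4 is a pseudogene of ubiquitin B, so its reads can be shared with that gene, and it was named after its values were seen. It had 30, 21 and 25 counts with HIV-1 and 208, 242 and 30 with HIV-1+LTA. Scaled to library size, the log2 differences were 2.49, 3.17 and 0.49, so the rise was mostly in batches 1 and 2. MRPL23, a mitochondrial ribosomal protein, had 7, 414 and 423 counts with HIV-1, fell to 6, 9 and 7 when LTA was added, and had 5, 3 and 8 with PBS, so that the HIV-1 libraries of batches 2 and 3 stood apart.

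**Figure D4:**
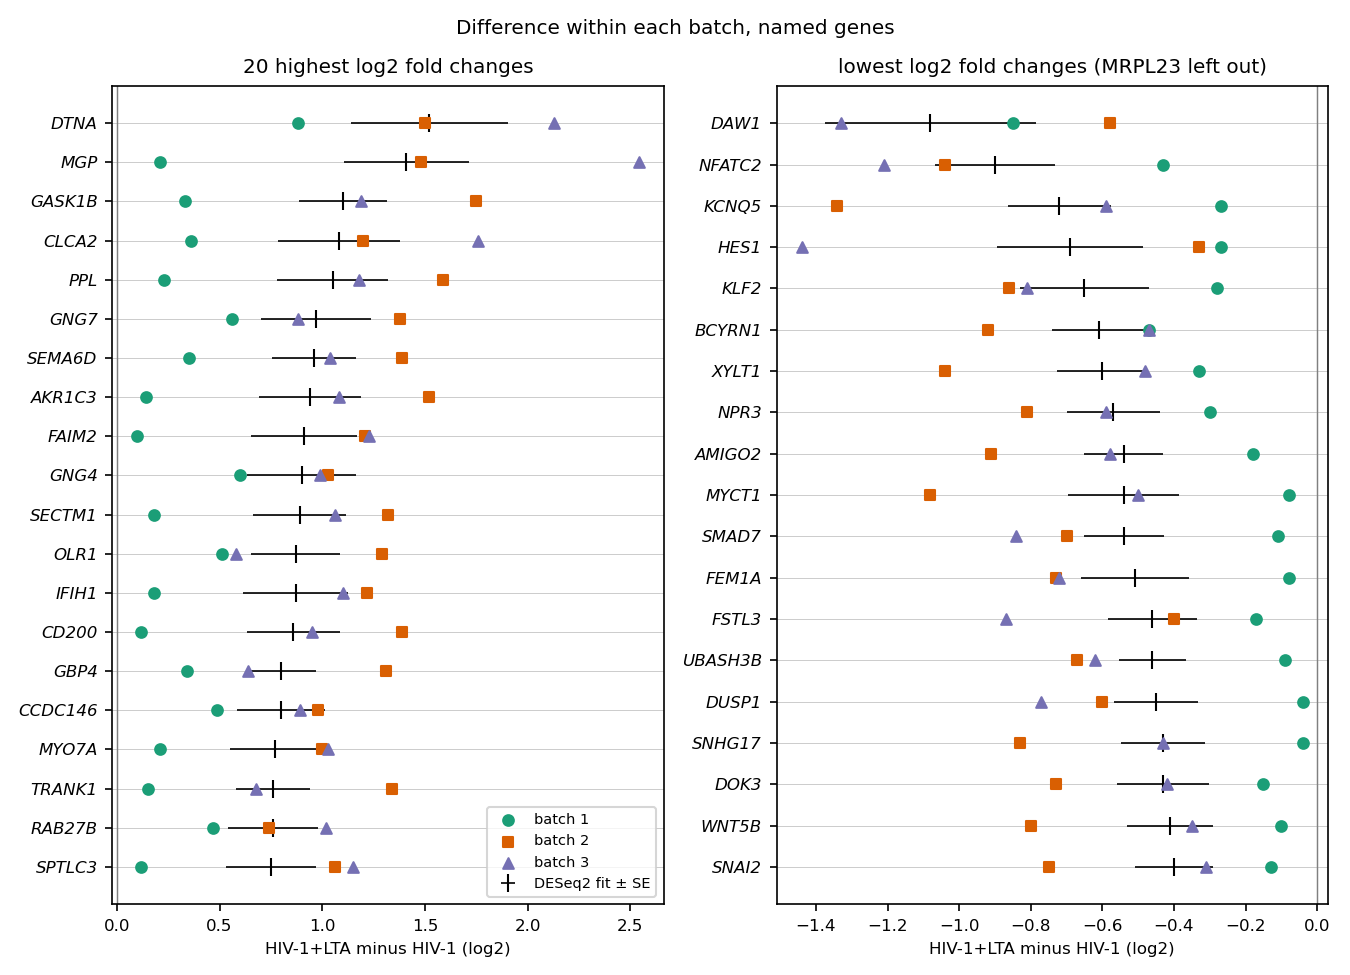
Difference between HIV-1+LTA and HIV-1 in each batch (points, log2 CPM), with the DESeq2 estimate and its standard error (bars). Shown are the 20 genes with the highest and 19 of the 20 with the lowest log2 fold change. They were drawn from passing genes with a mean of 1 CPM or more whose direction was shared by 3 batches. Pseudogenes, small nuclear, nucleolar and micro RNAs, antisense genes and LINC and LOC loci were left out. BCYRN1, a small cytoplasmic RNA, was kept. MRPL23 is left out of the right panel because its change of -4.73 would hide the others, and the batch 1 point is nearest 0 for most genes, as for MGP at 0.21 against 1.48 and 2.54.

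HIV-1 against PBS uses the same HIV-1 libraries, so its values are not independent of these and are only set beside them. In that comparison 3 genes passed, 0.015% of those tested. For PSMB9, DDX60 and TRIM22 the log2 fold change of HIV-1 against PBS was 0.07, -0.23 and -0.19, and that of LTA added to HIV-1 0.66, 0.64 and 0.64. For SMAD7 and HES1 it was 0.16 and 0.44, and that of LTA added to HIV-1 was -0.54 and -0.69. IGFBP5 went from -0.37 with HIV-1 against PBS to 0.28 with LTA added, and MRPL23 from 5.41 to -4.73. A gene that is high or low in the shared HIV-1 libraries moves both comparisons in opposite directions.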

How the data were processed

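RNA-seq was measured in 9 LX-2 libraries (PBS, HIV-1 and HIV-1+LTA, 3 each). The deposited counts are whole numbers of reads per gene symbol, not normalized by the authors, and sum to 50.6 to 90.6 M per library. Per the submitters' processing notes, fastp, STAR, SAMtools and HTSeq were used on hg19, and the series' design text names DESeq2. Tool versions and the strand setting are not given in the sources used here. A table of log2 fold changes that the authors deposited was compared with the fits: it matched HIV-1+LTA against PBS within 0.01 for all 19990 genes, so it is not the comparison here and was not used further.

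The main test was DESeq2 1.42.0 in R 4.3.3 on the deposited counts, with batch (the replicate number in the labels) and group, a minimum of 10 counts summed over the libraries, and Benjamini-Hochberg adjustment, a gene passing below 0.05. Of 35303 genes, 25265 had a count, 19990 were fitted and 13401 had an adjusted p. CPM and within-batch differences used edgeR 4.0.16 with TMM and a prior count of 2. Alternatives were edgeR's quasi-likelihood test, limma-voom (limma 3.58.1), no block, different size factors and count filters, a fold limit, only the 6 libraries compared, and libraries left out in turn. The scripts were tested on simulated data.

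The labels give the replicate number as the batch, so it pairs libraries. Deviations of same-numbered HIV-1 and HIV-1+LTA libraries from their group means correlated at 0.831, 0.866 and 0.973, but a different number gave up to 0.894 in batches 1 and 2. Named genes were CXCL8, TLR2 and CD14, passing members of the lists, and up to 3 members with the highest CPM of lists with none. Also named were the 20 highest and 20 lowest changes and 10 highest CPM in each direction. These were ranked among passing genes of the same direction in 3 batches with at least 1 CPM. Pseudogenes, small nuclear, nucleolar and micro RNAs, antisense genes and LINC and LOC loci were left out of these rankings. UBBP4 was therefore added by name, while BCYRN1, a small cytoplasmic RNA, was kept. DDX58, ISG15, OAS1, B2M, IFITM3, NFKBIA, ACTA2 and COL1A1 are outside that rule and were named after their values were seen. So were COL3A1, TAGLN, CD4, DES and GFAP. Members, 30 lists and tests were chosen with earlier results of these data known, and 5 more lists were drawn up after values were seen. ChIP-seq peaks were not used here, and values of some genes that the naming rule covers are not reported here.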

Additional observations from a re-analysis of the deposited data

How the results depend on the processing

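The counts of genes that rose and fell, 179 and 65, depended on the test and the libraries. Without the replicate block DESeq2 gave 0 and 1, and edgeR gave 0 and 0 with and without it (2486 and 153 genes had an unadjusted p below 0.05) as did limma-voom with the block (2578 genes). The fit of the 6 libraries gave 73 and 29, turning independent filtering off gave 142 and 42, and testing against a log2 change of 0.2 gave 2 and 0. Leaving out a batch or a library gave 0 to 975 genes higher and 0 to 1133 lower. Without the HIV-1 library of batch 2 the counts were 0 and 0, of batch 3 they were 3 and 0, and without the HIV-1+LTA library of batch 2 they were 2 and 3, of batch 3 they were 8 and 4. Without the HIV-1+LTA library of batch 1 they were 975 and 1133, and without the HIV-1 library of batch 1 they were 244 and 124. Without the PBS library of batch 2 or 3 they were 113 and 28 or 110 and 25. TMM scaling, total count scaling (which moved the median of all genes to 0.03), filterByExpr and no count filter kept both within 1.5 times. The called genes had the same sign in every alternative that tested them. The alternatives share counts with the main fit, so this does not support the calls. The cause of the lost calls was not tested. At this depth genes under about 1 CPM, TLR2 among them, are limited by counting error.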
